A study of Mus musculus with 4 samples.

Results

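Spi1, Spib, Spic, Cebpa, Cebpb, Cebpd, Cebpe and Cebpg encode PU.1, its closest relatives and the C/EBP family, and are 8 of the 21938 protein-coding genes annotated in the mouse genome build mm10 (GRCm38, GENCODE release M21). For each gene, peaks were taken whose summit lay in the gene body or within 50 kb of it, and those whose nearest annotated transcription start belonged to the gene were marked. The 8 windows held 30 of the 24972 sites of the transcription factor RUNX1 and 5 of the 13589 peaks of 2 further libraries, which carry the label of the histone mark H3K27me3. At 11 of the 30 RUNX1 sites the nearest start was that of one of the 8 genes.

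The cells were floating hematopoietic progenitors derived in vitro from mouse embryonic stem cells (ESC), cultured for 2 days. Every library, controls included, came from the same genotype, an ESC line with a Tet-on transgene for dominant-negative FOS (dnFOS), a peptide that blocks AP-1, the dimer of FOS and JUN proteins, when Doxycycline (DOX) is given. RUNX1 ChIP-seq was deposited as 1 peak list labelled Doxycycline and 1 labelled None, here called by these labels, +DOX and -DOX. The run names inside these 2 lists give the opposite treatment, so each direction stated below also has to be read with the 2 libraries exchanged. The 2 H3K27me3 libraries carry titles and treatment labels that contradict each other, belong here to no condition and are called by their titles. Their antibody label reads H3K27me3, although the ChIP protocol deposited for all 4 libraries is one for RUNX1.

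PU.1 is an ETS transcription factor that myeloid and B cells depend on, and its gene is switched on by RUNX1 during blood formation through an upstream regulatory element. The C/EBP proteins are basic leucine zipper factors that act with PU.1 in granulocytes and macrophages, bind as dimers among themselves, and can also pair with members of the AP-1 family. H3K27me3 is placed by the Polycomb repressive complex and is typical of silent developmental genes.

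The RUNX1 list labelled -DOX held 18389 peaks with a median fold enrichment over the local background of 5.05, and the list labelled +DOX held 21831 peaks with a median of 5.21. The H3K27me3 lists held 6356 peaks (titled untreated) and 7233 peaks (titled DOX), with median widths of 180 and 122 bp. The lists contain no read counts, so the depth of the libraries is unknown, and no expression, so the labelled cell type was not checked against its markers. Each condition had 1 library, so no spread between replicates, no error and no test of a difference can be given, and a gene without a peak is one where no peak passed the threshold of the peak caller. To set the lists side by side, the -log10 q-value of each peak was turned into its percentile in its own list, where 100 is the most significant peak.

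Stretches of sequence at 4 sites are shown ahead of the values because they lie at the strongest sites of Spi1 and Cebpe and at the starts of Cebpa and Cebpd. The sequences are from the RefSeq copy of GRCm38.p6. Capitals mark matches, on either strand, to the RUNX letters TGTGGT or TGCGGT, the ETS letters (CAGGAAA or CAGGAAG, and with C in the second place CCGGAAA or CCGGAAG), the C/EBP letters TTGCNNAA and the GATA letters AGATAA. The Spi1 stretch is chr2:91082946-91083145 on the + strand, and holds 3 RUNX, 2 ETS and 1 C/EBP match, with 1 RUNX and 1 ETS match overlapping. The Cebpe stretch is chr14:54705934-54706133 on the - strand, and holds 3 C/EBP matches and 1 GATA match but none to the RUNX letters. The Cebpd stretch is chr16:15887041-15887240 on the + strand, with 1 RUNX and 1 ETS match. The Cebpa stretch is chr7:35119071-35119270 on the + strand, without a match. A match is a description of letters and not a measured binding position.
Spi1, 13.1 kb upstream: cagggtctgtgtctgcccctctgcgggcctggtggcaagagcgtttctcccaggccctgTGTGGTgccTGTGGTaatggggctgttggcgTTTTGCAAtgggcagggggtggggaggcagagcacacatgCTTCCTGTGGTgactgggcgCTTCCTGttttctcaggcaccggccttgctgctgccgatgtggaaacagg
Cebpe, 6.1 kb downstream: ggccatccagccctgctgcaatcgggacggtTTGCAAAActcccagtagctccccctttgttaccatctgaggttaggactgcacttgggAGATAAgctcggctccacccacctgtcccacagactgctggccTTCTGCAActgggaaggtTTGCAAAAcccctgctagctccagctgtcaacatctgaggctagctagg
Cebpd, 0.1 kb upstream: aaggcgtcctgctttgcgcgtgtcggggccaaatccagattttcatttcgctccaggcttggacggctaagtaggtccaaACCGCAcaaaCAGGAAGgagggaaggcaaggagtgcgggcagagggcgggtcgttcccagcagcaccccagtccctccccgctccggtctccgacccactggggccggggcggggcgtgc
Cebpa, 0.1 kb upstream: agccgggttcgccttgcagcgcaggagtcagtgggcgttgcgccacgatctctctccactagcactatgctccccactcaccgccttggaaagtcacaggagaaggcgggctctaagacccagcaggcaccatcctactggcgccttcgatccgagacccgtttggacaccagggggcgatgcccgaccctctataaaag

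RUNX1 sites were present in the windows of 8 of 8 genes, where 78.0% of all protein-coding genes had at least 1 site in the same window. Of the 30 sites, 22 (73.3%) were called in both lists, 4 (13.3%) in the library labelled -DOX alone and 4 (13.3%) in the library labelled +DOX alone. Over all 24972 sites the shares were 56.8% for both lists, 14.8% for -DOX alone and 28.4% for +DOX alone. The number of sites ran from 1 at Spic to 8 at Spi1, with a median of 3.5 against 3 over all protein-coding genes. With 8 sites, Spi1 had as many as or more than 95.1% of protein-coding genes, while for the other 7 genes this share lay between 35.4% and 80.9%. Genes whose start was nearest to a site were 6 of 8, against 51.8% of all protein-coding genes, and the exceptions were Spib and Spic.

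**Figure D1:**
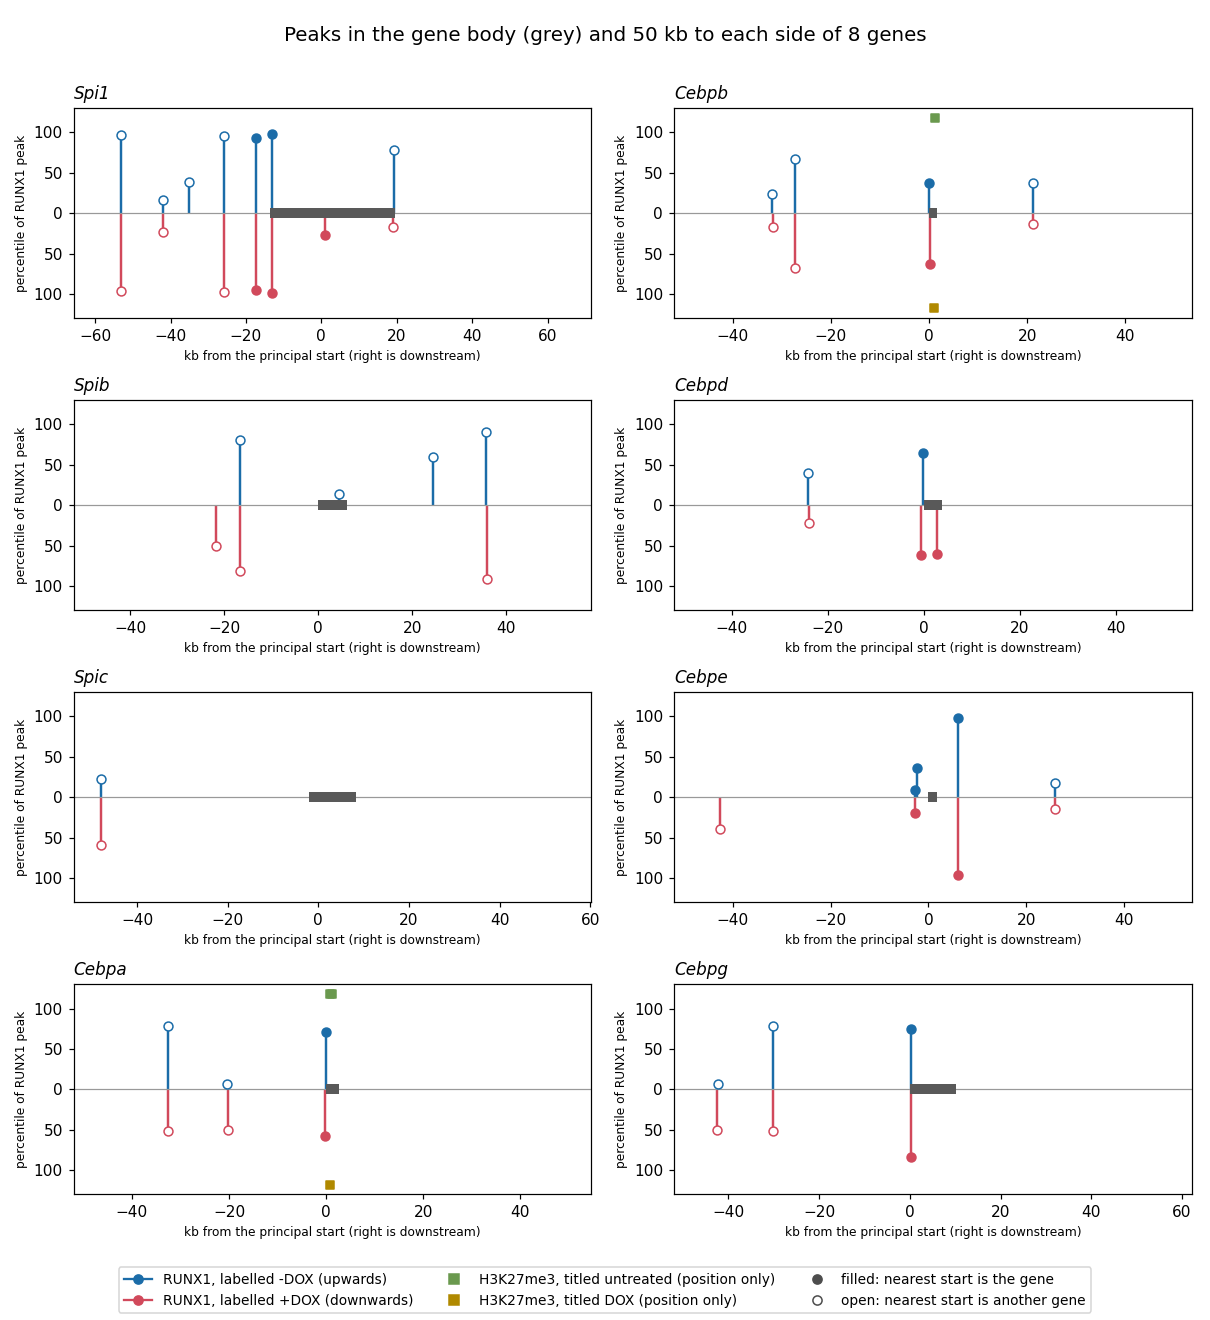
Peaks in the windows of the 8 genes, plotted by distance in kb from the principal start, with the percentile of the RUNX1 peak upwards for the library labelled -DOX and downwards for the library labelled +DOX; filled points have the gene as nearest start, open points another gene, and squares at the panel edges mark the position alone of H3K27me3 peaks. The tallest filled points are the Spi1 sites 17.2 and 13.1 kb upstream and the Cebpe site 6.1 kb downstream, and squares appear at Cebpa and Cebpb alone.

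**Figure D2:**
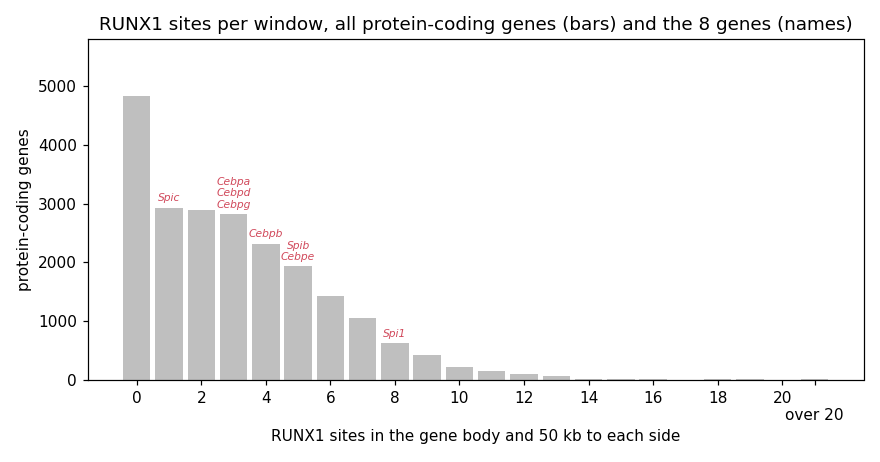
Number of protein-coding genes (bars) by the number of RUNX1 sites in the gene body and 50 kb to each side, with the 8 genes named above their bar. Spi1 stands at 8 sites and the other genes between 1 and 5.

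Spi1 (ENSMUSG00000002111.8, chr2:91082390-91115756, + strand) had the most sites of the family, 6 in both lists, 1 in each list alone. In 3 of the 8, Spi1 was the nearest start. The strongest lay 13.1 kb upstream of the principal start, in an intron of a longer annotated isoform and 638 bp from that isoform's start. It falls in the window from 13 to 15 kb upstream that was set for the upstream regulatory element, the enhancer on which Spi1 expression in blood cells depends, 943 and 950 bp from the window's middle. The fold enrichment there was 11.3 in the library labelled -DOX, against 14.2 with the label +DOX. The -log10 q was 64.0 and 101.8, which put the peak at percentile 97.5 and 99.3. The fold percentiles were 95.3 and 97.9. The site was thus near the top of both lists, with the higher value on each scale in the library labelled +DOX.

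A further Spi1 site lay 17.2 kb upstream, between genes and 3528 bp from the nearest Spi1 start. It had a fold of 8.40 (-DOX) and 8.65 (+DOX), and percentiles of 93.7 and 95.1 for -log10 q. The values of both libraries were nearly the same.

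The third site with Spi1 as nearest start was a weak peak 0.9 kb downstream of the principal start, in an intron. It was called in the library labelled +DOX alone, with a fold of 4.56, a -log10 q of 5.63 and percentile 27.02. No peak of the library labelled -DOX overlapped it. The other 5 sites of the window belonged by nearest start to neighbouring genes. Those at the starts of Rapsn and Slc39a13 were at percentiles 96.9 (-DOX) and 96.95 (+DOX), and at 95.9 and 97.5, so the window holds strong sites that are not nearest to Spi1. A site at the start of Psmc3 was weak in both lists (15.7 and 23.5), and one in a Psmc3 intron was called in the -DOX list alone at percentile 38.3.

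At the other end of the gene, 19.2 kb downstream and in the last coding exon of Spi1, a site differed in rank more than any other of the 22 shared sites. The nearest start, 2888 bp away, is that of Mybpc3, a cardiac sarcomere protein. The fold was 6.98 (-DOX) and 3.87 (+DOX), and the -log10 q was 16.95 and 4.58. The percentile was 78.0 and 17.5, a difference of -60.5 points (+DOX minus -DOX). A difference of this size in either direction was found at 1.23% of the 14177 shared sites. The stretch chr2:91115156-91115355 on the + strand is coding sequence and holds 1 match to the RUNX letters TGCGGT, in capitals.
Spi1, 19.2 kb downstream: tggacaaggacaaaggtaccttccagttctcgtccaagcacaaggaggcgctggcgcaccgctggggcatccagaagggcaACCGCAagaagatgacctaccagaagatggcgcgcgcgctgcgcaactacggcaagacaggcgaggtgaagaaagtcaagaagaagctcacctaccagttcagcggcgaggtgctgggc

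Neither relative of PU.1 had a site of its own. Spib (ENSMUSG00000008193.13, chr7:44525993-44532071, - strand), an ETS factor of B cells and plasmacytoid dendritic cells, had 5 sites in its window, 2 in both lists, 2 in the library labelled -DOX alone and 1 in the library labelled +DOX alone. The shared sites lay at the starts of Emc10 (percentiles 91.2 and 90.9) and Pold1 (80.4 and 81.5). Within the gene body there was 1 site, in the 3′ UTR, called in the library labelled -DOX alone at percentile 13.5. The other single-list sites were in an intron of Mybpc2 (-DOX, percentile 59.3) and at the start of Nr1h2 (+DOX, percentile 50.1). No peak was within 1500 bp of a Spib start.

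Spic (ENSMUSG00000004359.16, chr10:88674772-88685015, - strand), which red pulp macrophages of the spleen depend on, had 1 site in its window, fewer than any other of the 8 genes. It lay 48 kb upstream and 25 bp from a start of Arl1. Its percentile was 22.2 (-DOX) and 59.6 (+DOX), with a fold of 4.01 and 5.97. The peak was thus in the lower part of the first list and in the upper part of the second.

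Cebpa (ENSMUSG00000034957.10, chr7:35119293-35121928, + strand) encodes the factor that granulocyte and monocyte progenitors depend on. All 3 sites of its window were in both lists. The site with Cebpa as nearest start lay 0.1 kb upstream of the principal start, 122 bp from the nearest annotated start of the gene, in an intron of the overlapping noncoding gene Gm45091. The fold was 6.32 (-DOX) and 5.25 (+DOX), the -log10 q 13.7 and 10.2, and the percentile 71.2 and 58.1. It was a peak of middle rank in both lists, lower in the library labelled +DOX. No match to any of the motif letters was found in its 200 bp. A known downstream enhancer of Cebpa was searched for in a window from 36 to 38 kb past the start. No RUNX1 peak was called there in either list, and the nearest summits were 37132 bp (-DOX) and 37262 bp (+DOX) from its middle.

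The upstream sites of the Cebpa window differed between the libraries in opposite directions. The site 32.6 kb upstream lay 93 bp from the start of the noncoding gene Gm35611, and among coding genes was nearest to Cebpg. It had percentile 78.8 (-DOX) and 51.75 (+DOX), with a fold of 7.84 and 5.85. The site 20.3 kb upstream, nearest to Gm22535 and among coding genes to Cebpa, had percentile 6.27 and 51.0, with a fold of 3.78 and 5.62. The differences were -27.1 and 44.7 points, and a difference at least as large in either direction was found at 20.2% and 5.69% of shared sites. The sequences are chr7:35086643-35086842 and chr7:35098918-35099117, both on the + strand, and each held 1 match to the RUNX letters, in capitals.
Cebpa, 32.6 kb upstream: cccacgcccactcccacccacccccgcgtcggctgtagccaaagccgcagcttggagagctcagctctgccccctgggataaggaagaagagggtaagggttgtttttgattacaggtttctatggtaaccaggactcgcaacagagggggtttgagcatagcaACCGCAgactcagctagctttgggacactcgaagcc
Cebpa, 20.3 kb upstream: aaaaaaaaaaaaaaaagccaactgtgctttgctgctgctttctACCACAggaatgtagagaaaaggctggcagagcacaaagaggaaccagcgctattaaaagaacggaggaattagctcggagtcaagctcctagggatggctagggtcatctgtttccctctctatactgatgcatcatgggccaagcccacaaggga

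Cebpg (ENSMUSG00000056216.9, chr7:35046422-35056573, - strand) lies beside Cebpa and encodes a C/EBP protein that pairs with other members. The same 2 upstream sites fall in its window, at 30.2 and 42.4 kb. Its own site lay 0.2 kb downstream of the start, in the 5′ UTR. The fold was 6.36 (-DOX) and 7.74 (+DOX), and the percentile 74.5 and 83.5. Both values were higher in the library labelled +DOX, opposite to the direction at the Cebpa start. Neither difference in percentile was unusual. One at least as large in either direction was found at 56.6% of shared sites for Cebpg and 45.4% for the Cebpa start.

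Cebpb (ENSMUSG00000056501.3, chr2:167688915-167690418, + strand), known for its part in macrophages and in the granulocyte response to infection, had 4 sites, all of them in both lists. The site nearest to Cebpb joined a peak whose -DOX summit, at 167688889, was just upstream of the start to a wider one whose +DOX summit, at 167689163, was 0.2 kb into the gene. The fold was 4.15 and 5.09, the -log10 q 6.37 and 11.53, and the percentile 37.0 and 63.1. At 26.1 points, the difference was the largest among the 8 shared sites with a member as nearest start, and a difference at least as large was found at 21.4% of all shared sites. The summits lay apart, so the ranks of these 2 peaks do not compare the same position. The fold percentiles were 25.4 (-DOX) and 47.8 (+DOX). The stretch at the +DOX summit, chr2:167689063-167689262 on the + strand, is coding sequence and held no motif match. The other Cebpb sites were in the lower or middle part of both lists, at percentiles 24.1 and 17.7 in an intron of Gm20431 and Tmem189, 67.1 and 67.4 at the start of Gm20431, and 37.9 and 13.6 in an intron of A530013C23Rik.
Cebpb, 0.2 kb downstream: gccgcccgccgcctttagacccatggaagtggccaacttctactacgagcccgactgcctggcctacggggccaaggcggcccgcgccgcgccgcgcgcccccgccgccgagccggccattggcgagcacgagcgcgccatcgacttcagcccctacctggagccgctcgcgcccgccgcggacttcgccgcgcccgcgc

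Cebpd (ENSMUSG00000071637.5, chr16:15887286-15891031, + strand), a C/EBP gene that responds to inflammatory signals, had 2 sites of its own. The site 0.1 kb upstream merged 4 peaks of the lists. The peak of highest percentile in each list had a fold of 5.72 (-DOX) and 4.94 (+DOX), and percentiles of 64.9 and 61.7. The difference was -3.20 points, but the summits lay apart, at 15887141 (-DOX) and 15886782 (+DOX). The ranks of these 2 peaks thus do not compare the same position. The other site lay 2.8 kb downstream in the 3′ UTR and was called in the library labelled +DOX alone, with a fold of 4.92, a -log10 q of 10.8 and percentile 60.5. It had the highest percentile of the 4 sites found in that list alone, and it was the 1 site of the 30 with the PU.1 letters GAGGAAGT in its 200 bp. The remaining site of the window, at the start of Mzt2, had percentiles of 39.6 (-DOX) and 22.1 (+DOX).

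Cebpe (ENSMUSG00000052435.7, chr14:54710360-54712174, - strand), which drives the last steps of granulocyte maturation, had no RUNX1 peak within 1500 bp of its start but a strong one downstream. The site 6.1 kb downstream lies in the window from 5 to 7 kb set for the known Cebpe enhancer. Its fold was 14.8 (-DOX) and 12.6 (+DOX), the -log10 q 65.3 and 51.6, and the percentile 97.7 and 96.3. The fold percentiles were 98.35 and 96.8. Among the 11 sites nearest to one of the genes, its fold was the highest of the -DOX list, and in the +DOX list that of the Spi1 site 13.1 kb upstream alone was higher.

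On the other side of Cebpe, 2 weak sites lay 2.3 and 2.8 kb upstream. The first was called in the library labelled -DOX alone, with a fold of 4.66 and percentile 36.6. The second was in both lists, with a fold of 3.75 (-DOX) and 4.29 (+DOX), and percentiles of 9.39 and 19.7. Both were in the lower part of the lists. The 2 remaining sites of the window, at the start of 1700123O20Rik and in an intron of Slc7a8, were also in the lower part, the latter in the library labelled +DOX alone at percentile 39.2.

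**Figure D3:**
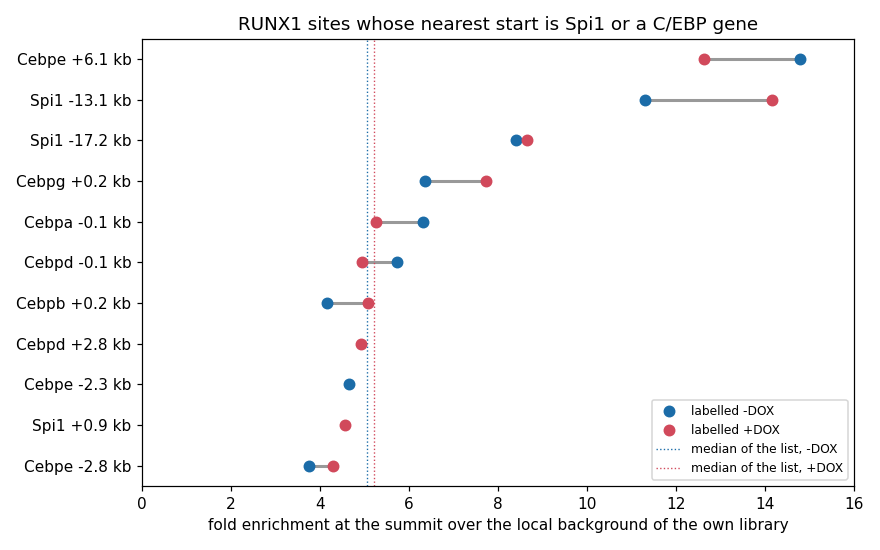
Fold enrichment at the summit for the 11 RUNX1 sites whose nearest start is Spi1 or a C/EBP gene, with 1 point per library and the median of each list as a dotted line. The Cebpe site 6.1 kb downstream (14.8 and 12.6) and the Spi1 site 13.1 kb upstream (11.3 and 14.2) stand farthest from the medians of 5.05 and 5.21.

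Across the 22 shared sites, the percentile differed between the libraries by a median of 0.14 points (range -60.5 to 44.7), against a median of 1.83 over all 14177 shared sites, 95% of which lay between -40.1 and 50.2. The percentile was over 25 points higher in the library labelled +DOX at 3 sites, those of Cebpb, Spic and Cebpa 20.3 kb upstream, where 15.1% of all shared sites passed this size. It was over 25 points lower at 2 sites, in the last exon of Spi1 and 32.6 kb upstream of Cebpa, where the background was 7.92%. At the Cebpb site the summits of the lists lay apart, and its difference does not compare the same position. With the run names in place of the labels, the counts 3 and 2 exchange. Of the 11 sites with a member as nearest start, 8 were in both lists, 1 in the -DOX list alone and 2 in the +DOX list alone. At the 3 sites of highest rank among these 11, Spi1 13.1 and 17.2 kb upstream and Cebpe 6.1 kb downstream, the differences were 1.75, 1.48 and -1.39 points. Ranks near 100 leave little room for a difference.

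**Figure D4:**
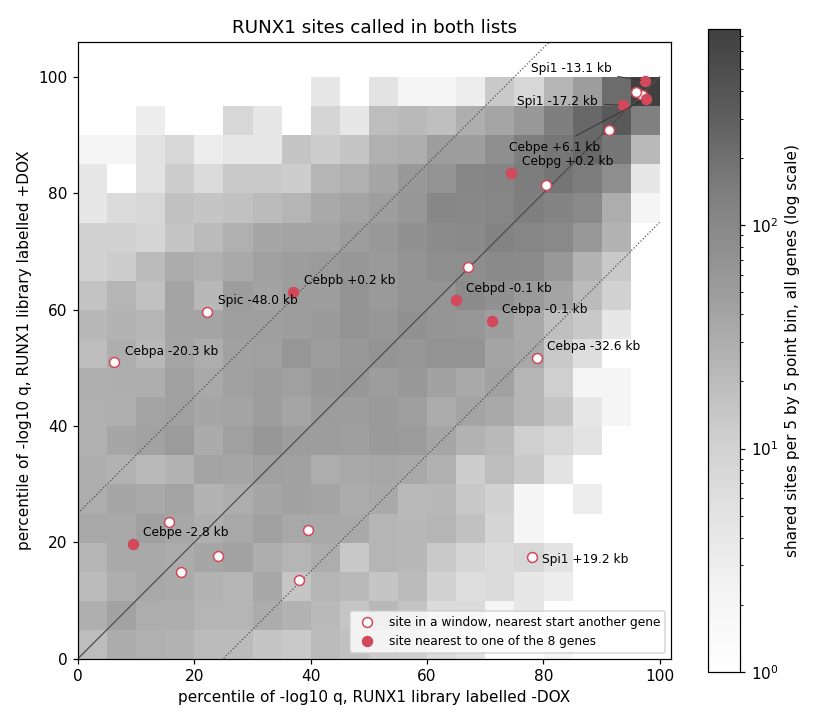
Percentile of -log10 q with the label -DOX (x axis) against that with the label +DOX (y axis) for the 22 shared sites of the windows (points), over the number of all 14177 shared sites per bin (grey, log scale). The solid line marks equal rank and the dotted lines a difference of 25 points, beyond which lie 3 points above and 2 below.

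The 8 sites found in a single list were of low or middle rank. The ranks of all single-list sites are not given here, so this is not read as particular to the family. In the library labelled -DOX alone, the percentiles were 13.5, 36.6, 38.3 and 59.3. In the library labelled +DOX alone, they were 27.02, 39.2, 50.1 and 60.5. No peak of the other list overlapped any of the 8. The windows of Cebpa, Cebpb, Cebpg and Spic held no such site, and 3 of the 8 were in the window of Spib.

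A RUNX1 peak within 1500 bp of an annotated start was found at 5 of 8 genes in each list, against 43.4% of protein-coding genes in the library labelled -DOX and 46.9% with the label +DOX. These were Cebpa, Cebpb, Cebpd, Cebpg and Spi1. In the library labelled -DOX, Spi1 was counted only through the site 13.1 kb upstream, 638 bp from the longer isoform's start. That site is the same one that falls in the window set for the upstream regulatory element. No -DOX peak lay within 1500 bp of the principal start of Spi1. Of the 30 sites, 18 (60.0%) lay within 1500 bp of some start, of any gene, against 53.9% of all sites. The median GC content of the 200 bp at the summit was 60%, against 56.5%.

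Motif letters were counted in the 200 bp at the summit and set beside the share of all 24972 sites. The longer RUNX letters TGTGGTT were found at 1 of 30 sites (3.33%), at the start of Rapsn, and at 14.2% of all sites. The shorter RUNX letters, which include the longer ones, were at 8 (26.7%) against 37.4%. Over all sites, TGTGGTT was at 6.01% of those within 1500 bp of a start and at 23.8% of those farther away, and the part that nearness to starts has in the share of 3.33% was not tested. Over the whole span of the peaks, TGTGGTT was found at 3 of the 30 sites, with the starts of Cebpd and Emc10 added, against 17.4% of all sites. The ETS letters were at 8 of 30 (26.7%) against 29.9%, and at 5 of the 11 sites nearest to a member.

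The C/EBP letters were at 4 of 30 sites (13.3%) against 6.46%, namely the Spi1 site 13.1 kb upstream, the Cebpe sites 6.1 kb downstream and 42.6 kb upstream, and the Cebpb site 21.1 kb downstream. The Cebpe site 6.1 kb downstream held 3 of these matches. The GATA letters were at 5 sites (16.7%) against 11.7%, and the PU.1 letters at 1 (3.33%) against 4.66%. Over the whole peaks, the PU.1 letters were at 2 sites, with the Cebpb start added (6.67% against 6.35%). The AP-1 letters TGACTCA or TGAGTCA were at 0 of 30 sites against 4.97%, and the letters TGACGCAA of a combined C/EBP and AP-1 site at 0 against 0.260%. Over the whole span of the peaks, with a median of 394.5 bp against 335 bp for all sites, AP-1 letters were found at 4 of 30 sites (13.3%) against 7.28%. These were the Slc39a13 and Emc10 starts in the windows of Spi1 and Spib, and the Cebpe sites 2.8 and 42.6 kb upstream, each with 2 matches on the searched strands. Since TGACTCA and TGAGTCA are each other's reverse complement, 1 place in the sequence gives 2 matches.

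H3K27me3 peaks were found in the windows of Cebpa and Cebpb alone, in both H3K27me3 libraries. At Cebpa the library titled untreated had a peak of 589 bp at chr7:35119682-35120270, with a fold of 7.29, a -log10 q of 19.2 and percentile 90.8, and a smaller one at chr7:35120389-35120625, with percentile 68.0. The library titled DOX had a peak of 552 bp at chr7:35119640-35120191, with a fold of 7.37, a -log10 q of 17.9 and percentile 92.0. All of them lay in the coding exon of Cebpa, and the main peak was of high rank and over 500 bp wide in both lists. Their nearest annotated start was not that of Cebpa but that of the overlapping noncoding gene Gm45091. It was 533 and 884 bp (titled untreated) and 422 bp (titled DOX) from the summits, against 835, 1186 and 724 bp to the Cebpa start.

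At Cebpb the library titled untreated had a peak of 209 bp at chr2:167689974-167690182, with a fold of 5.19 and percentile 24.95. The library titled DOX had a peak of 201 bp at chr2:167689913-167690113, with a fold of 6.34 and percentile 67.45. Both summits lay in the 3′ UTR of Cebpb. The nearest annotated start was one of Tmem189, 234 and 184 bp from the summits, against 1141 and 1091 bp to the Cebpb start. Both peaks were wider than the median peak of their list, of low rank in the library titled untreated and above the middle in the other.

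**Figure D5:**
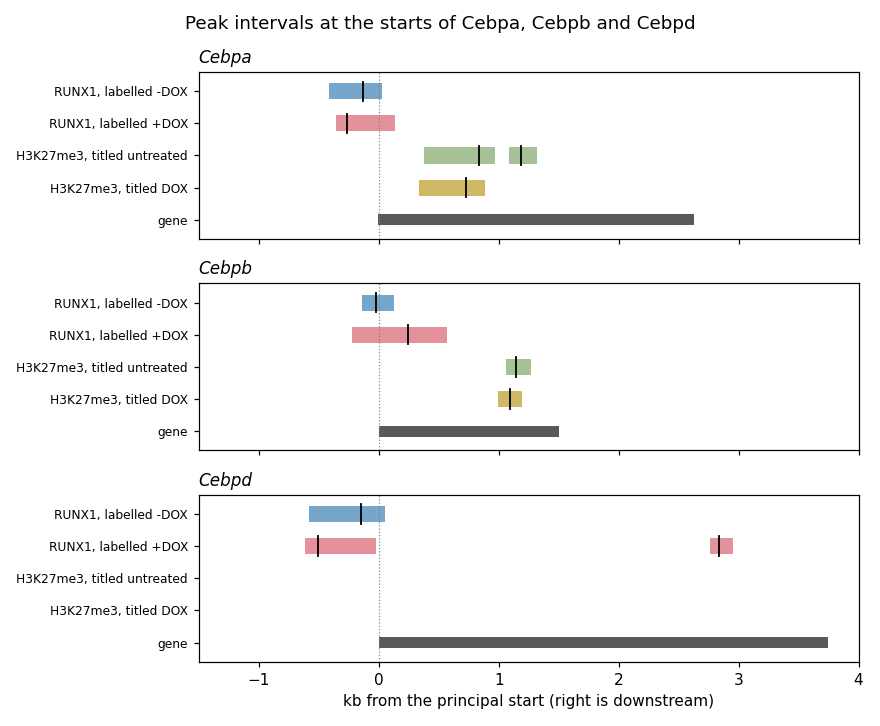
Peak intervals (bars) and summits (black ticks) at Cebpa, Cebpb and Cebpd in the 4 libraries, in kb from the principal start. For each RUNX1 site, only the peak of highest percentile in each library is drawn. Not all of the 4 peaks joined at the Cebpd start are therefore shown. At Cebpa and Cebpb the H3K27me3 bars lie downstream of the RUNX1 bars without overlap, and Cebpd has RUNX1 bars alone.

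With a peak within 1500 bp of a start, 2 of 8 genes were counted in each H3K27me3 library, where the background was 11.7% (titled untreated) and 11.1% (titled DOX) of protein-coding genes. Cebpa and Cebpb also had a RUNX1 peak at the start, a combination found at 6.10% of protein-coding genes. The RUNX1 and H3K27me3 peaks did not overlap. The RUNX1 summit was 469 bp from the nearest H3K27me3 peak at Cebpa and 750 bp at Cebpb. Spi1, Spib, Spic, Cebpd, Cebpe and Cebpg had no H3K27me3 peak in the window in either list, and the Spi1 site 13.1 kb upstream was 121040 bp from the nearest one.

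Lists of related genes were read in the same way. Among 12 partners and regulators of the family (Runx1, Gfi1, Irf8, Irf4, Egr1, Egr2, Klf4, Jun, Id2, Ddit3, Gata1 and Gata2), 10 had a RUNX1 site in the window, against 78.0% of all protein-coding genes. A RUNX1 peak within 1500 bp of a start was present at 8 of the 12 with the label -DOX and at 9 with the label +DOX, against 43.4% and 46.9%. The median was 4 sites per gene. Runx1 itself had 16 sites, 8 in both lists and 4 in each list alone, and was the nearest start of 10 sites. Id2, an inhibitor of basic helix-loop-helix factors, had 4 sites, all in the library labelled +DOX alone. Over all sites, 28.4% were in that list alone. The 3 sites nearest to Id2 reached percentile 12.2 at most.

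Irf8 and Irf4, interferon regulatory factors that bind DNA together with PU.1, had no RUNX1 site in the window. Both had an H3K27me3 peak within 1500 bp of a start in both lists, at percentile 49.9 (titled untreated) and 16.7 (titled DOX) for Irf8 and 28.45 and 25.9 for Irf4. In all, 6 of the 12 had such a peak in each list, against 11.7% (titled untreated) and 11.1% (titled DOX) of all protein-coding genes. In both lists it was 5 of the 12, against 9.40%.

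Among 14 myeloid target genes of PU.1 and C/EBP (Csf1r, Csf3r, Csf2ra, Itgam, Cd14, Mpo, Elane, Prtn3, Ctsg, Lyz2, Fcgr3, Ncf4, Ltf and Camp), 13 had a RUNX1 site in the window (78.0% of all protein-coding genes), with a median of 3.5 sites. Counts were highest for the Fc receptor gene Fcgr3 with 16 sites and for Mpo, which encodes myeloperoxidase, with 11. Lyz2, the macrophage lysozyme gene, had none. The Fcgr3 window also held 12 (titled untreated) and 14 (titled DOX) H3K27me3 peaks, the most of the 14 targets. The cause of the many peaks of both kinds in this window was not tested. Csf2ra, Mpo and Fcgr3 had a RUNX1 peak within 1500 bp of a start in both lists and Csf3r in the +DOX list alone. These are 3 of 14 genes with the label -DOX and 4 with the label +DOX, against 43.4% and 46.9% of all protein-coding genes. At 4 of the 14, an H3K27me3 peak lay within 1500 bp of a start in each list. Over all protein-coding genes this was so for 11.7% (titled untreated) and 11.1% (titled DOX). Counted once for each gene whose window holds it, a site was in both lists 29 times for the partners and 41 times for the targets, in the library labelled -DOX alone 7 and 11 times, and in the library labelled +DOX alone 17 and 20 times. For PU.1 and the C/EBP genes these counts were 24, 4 and 4. Over all protein-coding genes, counted in the same way, the shares were 60.3% in both lists, 14.0% with the label -DOX alone and 25.7% with the label +DOX alone, beside 54.7%, 13.2% and 32.1% for the partners and 56.9%, 15.3% and 27.8% for the targets.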

How the data were processed

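Peak lists of 4 libraries were used. Reads had been aligned by the authors to mm10, with MACS2 peak calls made for each library separately (q-value of 0.05 or less). The submitters' processing notes name Bowtie2 2.2.9 and MACS2 2.1.1. The study's methods name a different Bowtie2 version, and also Trimmomatic and the removal of duplicates with Picard. They further describe filtering peaks against a blacklist, a repeat list and DNaseI data. No such filter was added here. An input control is not given in the sources used here. Among the columns the authors deposited, a ratio gives the fold enrichment of the summit above its local background, and others hold the -log10 of a p-value and of a q-value. Fold and -log10 q depend on depth, which is unknown, so ranks within a list were compared.

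Peaks outside the assembled chromosomes were left out. All peak ends lay within the GRCm38 chromosomes. Each RUNX1 summit was widened by 200 bp on either side, and intervals that overlapped or adjoined were joined into sites. A site's position and sequence are those of its peak with the highest percentile. Distances are from the APPRIS principal start, and the nearest start was taken over all transcripts of GENCODE M21. Motifs were searched on both strands with Python 3.11.15 and numpy 2.4.6, and figures drawn with matplotlib 3.10.9. On simulated data, 100% of 3000 sites, 200 windows and 500 planted motifs were recovered.

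All 8 genes are named, with every site nearest to one of them and every site in the 3 enhancer windows. Sequences are given for the strongest site of each gene, for the enhancer windows and for shared sites differing by over 25 points. The Cebpg site lies in a UTR and the Spic site in a noncoding exon, and their sequences are not printed. The sequence of 1 further site is not reported here. The members and gene lists were chosen with earlier results of these data known. Alternatives changed the window, the q-value threshold, the extension, the overlap rule, the lengths of the lists, the repeats included, the starts considered, the promoter distance and the labels. With 1 library for each condition, no test was made.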

Additional observations from a re-analysis of the deposited data

How the results depend on the processing

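Of 53 alternative counts, 34 stayed within 1.5 times the reported count. With windows of 20 kb, 12 sites were in both lists and 2 in the library labelled +DOX alone. With windows of 100 kb these were 34 and 11, and the H3K27me3 peaks numbered 14 (titled untreated) and 15 (titled DOX). At a -log10 q of at least 5, 13 sites were in both lists and 7 in each list alone. At 10 or more, 11 were in both lists, each H3K27me3 list kept 1 peak, and 1 gene had such a peak at its promoter. With an extension of 100 bp, 21 sites were in both lists and 7 in each list alone. Shares over all sites were not counted under the alternatives. The comparison of the shared sites with 56.8% thus holds for the reported settings alone. With promoters of 500 bp, 0 genes had an H3K27me3 peak there. For a lower percentile in the library labelled +DOX, settings chosen after seeing the data gave 4 sites at over 15 points, 1 at over 35 points and 1 with the fold percentile. With the labels exchanged, the counts were again 22, 4 and 4, which was fixed in advance because both single-list counts are 4. Leaving out repeats had little to act on, as 0 of the 30 RUNX1 sites were over 50% repeat-masked. Both settings are among the alternatives that stayed within 1.5 times. The cause of these changes was not tested beyond the settings' own construction. Without counts or replicates, the depth cannot set a limit on a missing peak, and no paired analysis was possible because each condition has 1 library.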
